A study of Mus musculus with 12 samples.

Results

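Cell cycle and proliferation genes are described here in RNA from isolated glomeruli, the filtering units of the kidney, of mice given adriamycin (ADR). The set was fixed by name and holds 38 of the 26264 genes counted: 12 genes of DNA replication and nucleotide supply, the 2 transcription factors E2f1 and Foxm1, and 24 genes of mitotic entry, the spindle and cytokinesis, with the proliferation marker Mki67 counted among the last. The animals were 8-week-old males from a pair of inbred mouse lines, one labelled BALB/cAjcl (called AJcl here) and the other BALB/cByJcl (called ByJcl). They were sampled either untreated (baseline) or at Day 5 after 1 intravenous injection of ADR at 10 mg/kg, with 3 libraries per substrain and state. No genotype other than the substrain was labelled, and no vehicle-treated library was among the 12 analysed, so the injection itself cannot be told apart from ADR. Glomeruli were captured with magnetic beads perfused through the heart, a preparation that retains podocytes, endothelial and mesangial cells with variable amounts of attached tubule. The labels do not state whether 1 library is 1 mouse, so p-values measure the spread between libraries.

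Dividing cells express these genes in waves. Transcription factors of the E2F family drive genes of DNA replication as a cell enters S phase, and the DREAM and MuvB complexes with B-MYB and FOXM1 control genes of mitosis through CHR elements (short promoter motifs) beside CCAAT boxes bound by NF-Y. Mature podocytes have left the cell cycle and do not normally divide, whereas endothelial, mesangial and blood-derived cells of the glomerulus can. ADR (doxorubicin) damages DNA and poisons topoisomerase II, and the p53 pathway that such damage activates induces the cell cycle inhibitor Cdkn1a (p21).

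Promoter sequence is shown because the set joins replication genes and mitotic genes, whose promoters are known for different elements. The sequences are 160 bases ending at the RefSeq start, taken from the RefSeq promoter table (GRCm38.p6) and placed in GRCm39 by exact match. A GENCODE transcript start lay within 26 bases of the RefSeq start for all 5 genes shown. The E2f1 promoter is not printed, and its GENCODE start lay at -466 bases, upstream of the RefSeq start. That promoter is counted in the totals of the set given below. Capitals mark a CHR element (TTTGAA or TTTAAA), an E2F core (TTGGCGC or TTCGCGC or TTCCCGC or TTGCCGC) or CCAAT, each searched on both strands, so CCAAT on the other strand reads ATTGG. The CHR form TTTAAA is its own reverse complement, and the reverse complement of TTGGCGC ends in CCAA and can overlap a CCAAT box. Rrm1 and Cdt1 are shown as the replication genes that changed after ADR, Mcm5 as a replication gene that did not pass the test, and Cdk1 and Plk1 as mitotic kinases.
Rrm1 promoter, chr7:102090742-102090901 (+ strand): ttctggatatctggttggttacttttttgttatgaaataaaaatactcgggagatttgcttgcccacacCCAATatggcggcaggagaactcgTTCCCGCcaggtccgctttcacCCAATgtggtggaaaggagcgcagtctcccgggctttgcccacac
Cdt1 promoter, chr8:123294594-123294753 (+ strand): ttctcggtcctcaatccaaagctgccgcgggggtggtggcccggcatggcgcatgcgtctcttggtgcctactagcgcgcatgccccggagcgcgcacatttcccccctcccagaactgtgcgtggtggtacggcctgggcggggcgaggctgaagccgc
Mcm5 promoter, chr8:75835977-75836136 (+ strand): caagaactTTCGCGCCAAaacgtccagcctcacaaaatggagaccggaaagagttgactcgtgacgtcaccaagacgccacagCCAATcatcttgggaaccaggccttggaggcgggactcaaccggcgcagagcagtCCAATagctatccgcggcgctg
Cdk1 promoter, chr10:69188743-69188902 (- strand): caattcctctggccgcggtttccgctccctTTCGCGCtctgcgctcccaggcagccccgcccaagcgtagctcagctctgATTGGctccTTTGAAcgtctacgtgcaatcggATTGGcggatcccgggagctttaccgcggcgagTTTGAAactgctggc
Plk1 promoter, chr7:121758498-121758657 (+ strand): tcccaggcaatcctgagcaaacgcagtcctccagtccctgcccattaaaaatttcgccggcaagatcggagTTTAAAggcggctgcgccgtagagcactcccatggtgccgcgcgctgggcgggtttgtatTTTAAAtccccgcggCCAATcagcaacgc

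Rrm1 held 1 E2F core and 2 CCAAT boxes in these 160 bases, and Mcm5 held 2 CCAAT boxes and 2 E2F core matches that overlap each other, 1 on each strand. Cdk1 held 2 CHR elements, at 71 and 15 bases before the start, with 2 CCAAT boxes and an E2F core. Plk1 held 2 CHR elements at 89 and 29 bases before the start and 1 CCAAT box. Cdt1 held none of these letters. Over the 250 bases before the start, the table covered 32 of the 38 genes with 34 promoters. A CHR element was present in 11 of the 21 promoters of mitotic genes (52.4%, Mki67 included), in 2 of the 12 promoters of replication genes (16.7%) and in 25.2% of all 32851 promoters. The E2F core was most frequent in replication promoters, with 58.3% of them, 19.0% of the mitotic promoters and 7.89% of all promoters. CCAAT was common to both, in 27 of 34 (79.4%) against 33.8% of all promoters. These matches are descriptions of letters, and binding was not measured.

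Total counts were between 42198416 and 54687045 per library, and each of the 38 genes had counts in all 12 libraries. The lowest count of any of them was 4 and the highest 3850, and 4 genes had a library under 10 counts. All 38 passed the filter on low counts, so none is missing from the tests. Cdkn1a, read as a check of the ADR label, was between 20.3 and 30.8 CPM (counts scaled to a common library size with TMM factors) in the 6 baseline libraries and between 281 and 947 in the 6 Day 5 libraries. The AJcl Day 5 replicate 1 library, named A-ADR1, was left out of the tests because the study excludes it for low glomerular purity. Its 6 proximal tubule markers summed to 2700 CPM and 4 podocyte markers to 6180, whereas the AJcl baseline 3 library, which was kept, had 2800 CPM of the same tubule markers and 11500 CPM of the podocyte markers. The 6 distal nephron markers were highest of all 12 libraries in A-ADR1, at 2020 CPM, with 1650 CPM in AJcl baseline 3.

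Levels between genes are compared only as CPM per kilobase of exon. At baseline Pcna, the sliding clamp of DNA polymerase, was highest at 25.4 ± 4.48 CPM per kb (SD, n = 6), followed by E2f1 at 13.4 ± 2.51. The helicase subunits Mcm4, Mcm7 and Mcm3 followed at 5.22 ± 0.263, 4.81 ± 0.167 and 4.05 ± 0.319, and Rrm1 at 3.17 ± 0.116. The mitotic genes sat lower than these, Cdc20 at 1.54 ± 0.248 and Mki67 at 0.473 ± 0.0636. Other replication genes lay among them, such as Tyms at 1.17 ± 0.256, Rrm2 at 0.343 ± 0.081 and Cdc6 at 0.109 ± 0.0283. Bub1 was lowest at 0.0838 ± 0.0321, and in the order from Birc5 to Bub1 each gene lay within 1 SD of the next. Together the 38 genes made up between 0.0289% and 0.0459% of all counts.

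**Figure D1:**
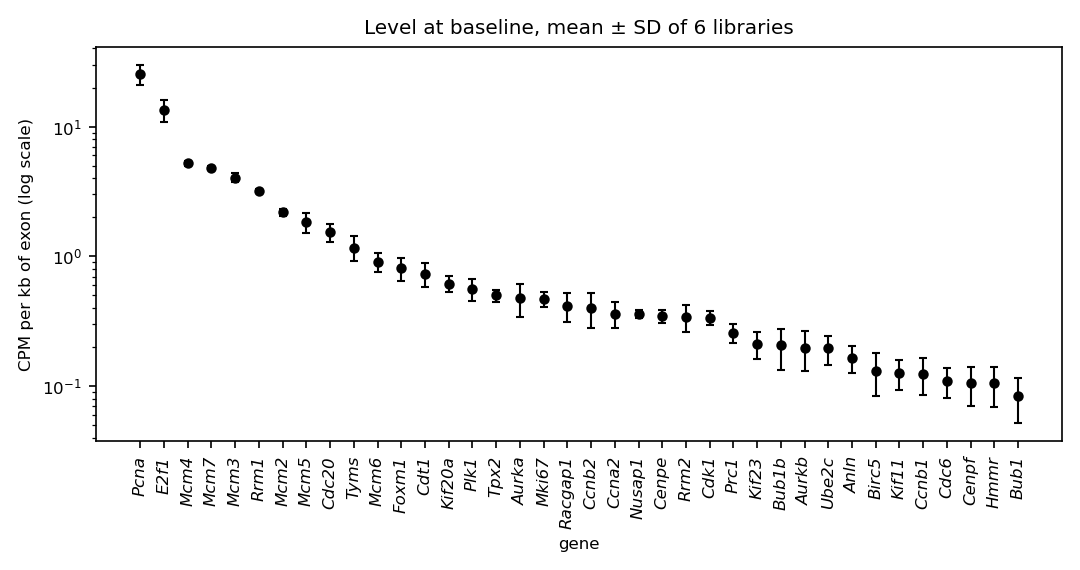
Baseline level of the 38 genes as CPM per kilobase of exon on a log axis, ordered by mean; points are means and bars SDs of 6 baseline libraries (both substrains). Pcna (25.4) and E2f1 (13.4) lead, and Bub1 (0.0838) is lowest.

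Rrm1, the large subunit of ribonucleotide reductase, which makes deoxyribonucleotides for DNA synthesis (chr7:102090890-102119709, + strand, GRCm39), rose at Day 5 in both substrains. It measured 37.4, 38.2 and 37.1 CPM in AJcl at baseline and 55.9 and 72.7 at Day 5, with 54.1 in A-ADR1. In ByJcl it measured 36.0, 35.6 and 39.3 CPM at baseline and 82.2, 70.0 and 70.8 at Day 5. No Day 5 library of either substrain overlapped a baseline library. The log2 fold change was 0.80 ± 0.14 (SE) in AJcl (edgeR quasi-likelihood test, adjusted p = 0.0414), 1.04 ± 0.12 in ByJcl (adjusted p = 0.00146) and 0.92 ± 0.09 as the mean of both (adjusted p = 0.000417). The AJcl call did not hold with A-ADR1 included (0.70, adjusted p = 0.0624), and it was lost in 9 of the 11 fits that left out 1 library, all but those without AJcl Day 5 replicate 2 or ByJcl Day 5 replicate 1 (values from 0.55, without AJcl Day 5 replicate 3, to 0.99). With the replicate number added to the model as a block, the AJcl call of Rrm1 was lost too (0.81). The small subunit of the same enzyme, Rrm2, did not pass the test, at -0.12 ± 0.43 in AJcl and 0.69 ± 0.39 in ByJcl. Rrm2 was 1.08, 1.02 and 1.62 CPM in AJcl at baseline and 0.716 and 1.51 at Day 5, with 0.907 in A-ADR1. In ByJcl it was 1.11, 1.21 and 0.813 CPM at baseline and 1.84, 2.08 and 1.03 at Day 5. Only the third ByJcl Day 5 library lay within its baseline range in that substrain.

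Cdt1, which loads the MCM helicase onto replication origins (chr8:123294703-123300293, + strand), rose in ByJcl. It was 1.70, 2.78 and 2.66 CPM at baseline and 3.88, 4.35 and 4.33 at Day 5, without overlap (log2 fold change 0.84 ± 0.24, edgeR adjusted p = 0.0476). In AJcl it was 1.89, 2.31 and 2.90 CPM at baseline and 2.77 and 3.30 at Day 5, with 4.41 in A-ADR1. These AJcl groups overlapped, and the change of 0.38 ± 0.27 did not pass the test. The ByJcl call lay close to the threshold: it was lost in 9 of the 11 fits that left out 1 library, all but those without AJcl baseline replicate 1 or 3, with values from 0.66 (without ByJcl baseline replicate 1, adjusted p = 0.144) to 0.96. It was also lost with all 12 libraries and without the filter on low counts. The difference between the substrains in the change of Cdt1 was 0.46 ± 0.36 and did not pass the test (edgeR adjusted p = 0.744). For Rrm1 that difference was 0.24 ± 0.19 (edgeR adjusted p = 0.744).

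E2f1, a transcription factor for replication genes (chr2:154401326-154411812, - strand), fell in ByJcl. It was 57.8, 40.4 and 54.3 CPM in ByJcl at baseline and 32.3, 10.5 and 12.8 at Day 5, all 3 below the lowest baseline library. In AJcl it was 42.3, 48.8 and 35.1 CPM at baseline and 28.8 and 23.7 at Day 5, with 27.0 in A-ADR1, again without overlap. The log2 fold change was -1.42 ± 0.36 in ByJcl (edgeR adjusted p = 0.031), -0.67 ± 0.40 in AJcl (adjusted p = 0.667) and -1.04 ± 0.27 as the mean of both (adjusted p = 0.0339). Leaving out any 1 of the 3 ByJcl baseline libraries or ByJcl Day 5 replicate 2 or 3 ended the ByJcl call, at -1.30, -1.57, -1.37, -1.13 and -1.18 in that order. Without ByJcl Day 5 replicate 1 the change was -2.11. The mean call held in 3 of the 11 fits, those without AJcl baseline replicate 3, ByJcl baseline replicate 2 or ByJcl Day 5 replicate 1, with values between -1.39 and -0.90.

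Podocyte markers and the sum of 6 endothelial markers fell with E2f1 in ByJcl. The 4 podocyte markers described here (Nphs1, Podxl, Synpo and Wt1) were called lower there, as were 4.83% of all genes. Their summed level in ByJcl was 13000 to 14000 CPM at baseline and 5340 to 7360 at Day 5. In AJcl the sum was 9940 to 13800 CPM at baseline and 10700 and 7420 at Day 5, with 6180 in A-ADR1. None of the 4 passed the test in AJcl (edgeR, 1 at an unadjusted p below 0.05, beside 1666 of all 17002 genes). Synpo, an actin-binding protein of podocyte processes, had a mean log2 fold change of -1.08 (edgeR adjusted p = 0.00239), in a comparison where 4.15% of all genes were called lower. Nphs1, which encodes nephrin of the slit diaphragm, had one of -0.76 (edgeR adjusted p = 0.0213), and Wt1, a podocyte transcription factor, one of -0.66 (adjusted p = 0.0183). Divided by the podocyte sum, E2f1 was 3.06, 3.54 and 4.26 CPM per 1000 CPM of these markers in AJcl and 3.11, 4.04 and 4.12 in ByJcl at baseline, in ascending order. At Day 5 it was 2.69 and 3.20 in AJcl replicates 2 and 3, 4.37 in A-ADR1, and 4.39, 1.97 and 2.13 in ByJcl replicates 1 to 3, so 3 of the 6 Day 5 libraries were below every baseline library, 1 was inside the baseline range and 2 were above it. The 6 endothelial markers summed to 6960 to 8520 CPM in ByJcl at baseline and 4110 to 6090 at Day 5. Of their ByJcl estimates, 2 were positive and 4 negative. In AJcl their sum was 6420 to 7140 CPM at baseline and 6580 and 5710 at Day 5, with 4660 in A-ADR1. In these bulk samples fewer cells of a type and less RNA per cell cannot be told apart. The part of podocyte or endothelial RNA in the change of E2f1 was not tested. Foxm1, the other transcription factor, overlapped in both substrains: in AJcl it was 3.51, 5.92 and 5.95 CPM at baseline and 4.94 and 5.99 at Day 5 (1.97 in A-ADR1), and in ByJcl 4.62, 4.42 and 5.95 at baseline and 7.00, 5.14 and 2.93 at Day 5.

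**Figure D2:**
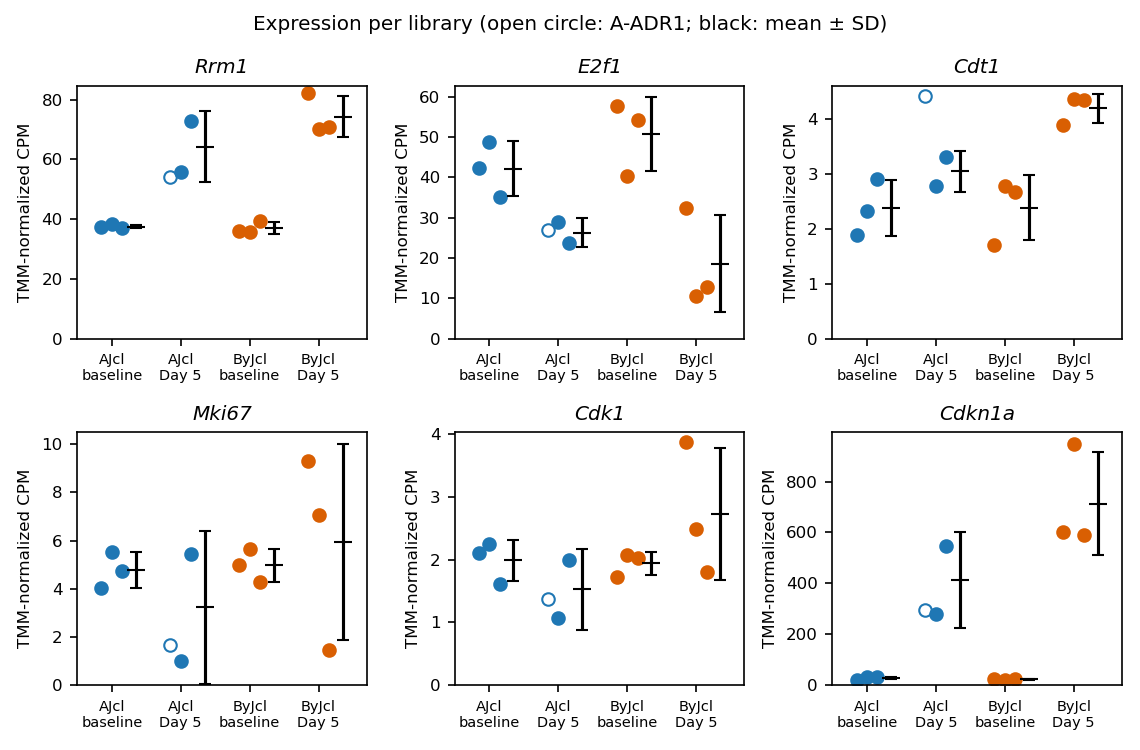
TMM-normalized CPM of Rrm1, E2f1, Cdt1, Mki67, Cdk1 and the inhibitor Cdkn1a in every library, on linear axes from 0; filled circles are libraries in the tests, the open circle is A-ADR1, and the black bar is the mean ± SD (n = 2 for AJcl Day 5, n = 3 otherwise). Rrm1 and Cdkn1a separate Day 5 from baseline in both substrains, whereas Mki67 at Day 5 reaches from 0.984 to 9.31 CPM and encloses its baseline range.

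In AJcl, Rrm1 was the only one of the 38 genes called after ADR (edgeR adjusted p below 0.05), where 0.312% of the 17002 genes tested were called (0.306% higher and 0.00588% lower). In ByJcl 3 of the 38 were called, Rrm1 and Cdt1 higher and E2f1 lower, against a background of 10.6% (5.75% higher and 4.83% lower), and in the mean of both substrains 2, Rrm1 higher and E2f1 lower, against 10.4% (6.29% higher and 4.15% lower). The median log2 fold change of the 38 was -0.18 in AJcl and 0.45 in ByJcl, beside about 0 for all genes tested (0.01 in ByJcl). In AJcl 26 of the 38 estimates were negative, and in ByJcl 32 were positive. The 2 comparisons have no library in common, but both lean on few libraries: the AJcl median was -0.58 without Day 5 replicate 3 and 0.03 without replicate 2, and the ByJcl median was 0.19 without Day 5 replicate 1 and 0.78 without replicate 3.

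Without overlap between baseline and Day 5, Rrm1 and Tpx2 were higher in AJcl, where 13.3% of all genes tested were, and Mcm2, Mcm3, Mcm5, E2f1, Aurkb, Ube2c, Nusap1 and Racgap1 were lower, where 12.3% were. Of these, Mcm2, Mcm5, Aurkb and Racgap1 were within the AJcl baseline range in A-ADR1, which was left out here. In ByJcl, Cdt1, Pcna, Rrm1, Tyms and Cdc20 were higher (15.9% of all genes) and E2f1 and Aurka lower (17.7%). In both directions together these are 10 and 7 of the 38, a share close to the background in AJcl and below it in ByJcl. With the substrains joined, Rrm1 was above and E2f1 below all 6 baseline libraries in all 5 Day 5 libraries, where 3.5% and 2.6% of all genes were. Pcna was 63.5, 54.2 and 55.0 CPM in ByJcl at baseline and 73.9, 69.7 and 70.6 at Day 5, but the log2 fold change of 0.34 ± 0.15 did not pass the test (edgeR adjusted p = 0.172), except without AJcl baseline replicate 1 (0.35, adjusted p = 0.0416). In AJcl Pcna was 81.7, 56.9 and 54.1 CPM at baseline and 55.9 and 56.5 at Day 5, with 69.9 in A-ADR1, so those groups overlapped. Cdc20, the activator of the anaphase-promoting complex, changed by 0.74 ± 0.30 in ByJcl (edgeR adjusted p = 0.141). Aurka, a kinase of the spindle poles, had the opposite sign in ByJcl, at -0.62 ± 0.34 (edgeR adjusted p = 0.28).

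**Figure D3:**
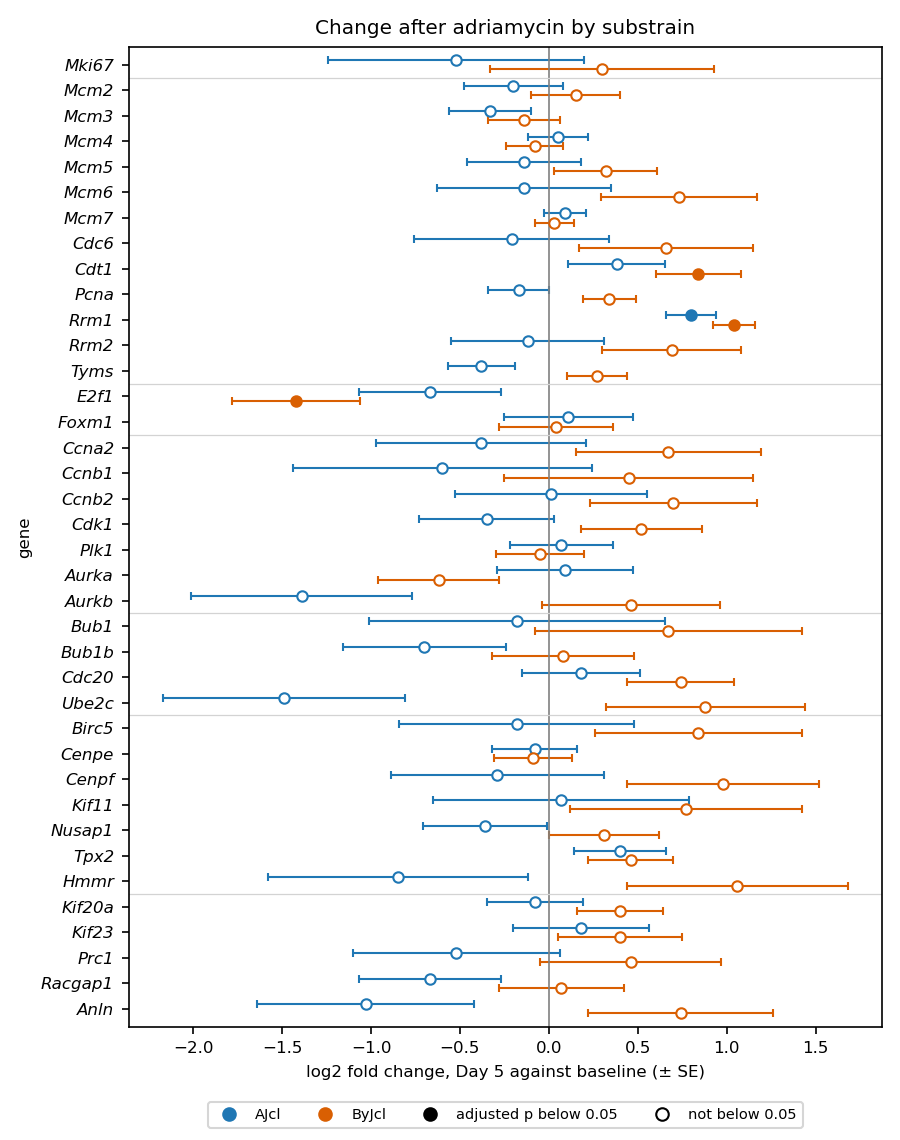
Log2 fold change of the 38 genes at Day 5 against baseline with SE bars, AJcl in blue and ByJcl in orange; filled points have an edgeR adjusted p below 0.05. Rrm1 is filled in both substrains and Cdt1 and E2f1 in ByJcl, and the widest bars belong to mitotic genes such as Ccnb1, Bub1, Hmmr and Mki67.

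For the replicative helicase genes Mcm2 to Mcm7 no change passed the test. Their log2 fold changes lay between -0.33 (Mcm3) and 0.09 (Mcm7) in AJcl and between -0.14 (Mcm3) and 0.73 (Mcm6) in ByJcl. Mcm2 was 16.5, 16.2 and 18.8 CPM in AJcl at baseline and 14.1 and 15.4 at Day 5, with 16.5 in A-ADR1, and 16.4, 18.2 and 17.8 CPM in ByJcl at baseline. At Day 5 in ByJcl it was 28.5, 12.5 and 15.8 CPM, so replicate 1 was above every other library and the other 2 were below the ByJcl baseline. Mcm6 had the same high library, with 14.4, 4.53 and 4.10 CPM at Day 5 in ByJcl and 4.12 to 5.86 at baseline. For Mcm7, at 0.09 ± 0.12 in AJcl and 0.03 ± 0.11 in ByJcl, the 95% intervals reached from -0.18 to 0.37 and from -0.22 to 0.27. Tyms, which makes thymidylate, was at -0.38 ± 0.19 in AJcl and 0.27 ± 0.17 in ByJcl, and Cdc6, another origin loader, at -0.21 ± 0.55 and 0.66 ± 0.49.

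Among the genes of mitosis, the Day 5 libraries of each substrain lay far apart. Mki67, which encodes the Ki-67 antigen of cycling cells, was 4.02, 5.51 and 4.73 CPM in AJcl and 4.98, 5.65 and 4.27 in ByJcl at baseline. At Day 5 it was 0.984 and 5.45 in AJcl, with 1.68 in A-ADR1, and 9.31, 7.07 and 1.44 in ByJcl. In ByJcl 2 Day 5 libraries were above the range of the 6 baseline libraries and 1 was below it, and in AJcl 1 was inside it and the others below. The fitted change was -0.52 ± 0.72 in AJcl (95% interval -2.10 to 1.05) and 0.30 ± 0.63 in ByJcl (-1.08 to 1.67). Ccnb1, the cyclin B that starts mitosis, followed the same libraries: 0.421, 0.297 and 0.725 CPM in AJcl at baseline against 0.090 and 0.517 at Day 5 (0.475 in A-ADR1), and 0.468, 0.647 and 0.665 in ByJcl at baseline against 1.02, 1.18 and 0.172 at Day 5. Cdk1, the kinase that cyclin B activates, was 2.11, 2.25 and 1.62 CPM in AJcl at baseline and 1.07 and 1.99 at Day 5, with 1.38 in A-ADR1. In ByJcl Cdk1 was 1.72, 2.07 and 2.03 CPM at baseline and 3.88, 2.49 and 1.81 at Day 5. As for Mki67, ByJcl replicates 1 and 2 were high and replicate 3 was not.

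Over the 6 Day 5 libraries, ByJcl replicate 1 was highest for 27 of the 38 genes and ByJcl replicate 2 for 8, whereas AJcl replicate 2 was lowest for 16 and ByJcl replicate 3 for 11. Of the 24 genes of mitosis, counting Mki67, replicates 1 and 2 of ByJcl were highest for 16 and 7, and AJcl replicate 2, ByJcl replicate 3 and A-ADR1 lowest for 11, 10 and 3. Averaged over those 24 genes as log2 CPM (0.05 CPM added) relative to baseline, the ByJcl Day 5 libraries stood at 0.74, 0.59 and -0.71, the AJcl ones at -0.84 and 0.09, and A-ADR1 at -0.13. The 6 baseline libraries stayed between -0.14 and 0.21. The 12 replication genes had the same highest and lowest Day 5 libraries, with a narrower range: their mean stood at 0.65, 0.08 and 0.04 in the ByJcl libraries, -0.11 and 0.12 in the AJcl ones and 0.13 in A-ADR1. ByJcl replicate 1 was highest for 9 of the 12, and AJcl replicate 2 and ByJcl replicate 2 were each lowest for 5 and ByJcl replicate 3 for 1. For the 2 transcription factors the ByJcl Day 5 means were -0.01, -1.04 and -1.29. The median SD of the 24 genes on the log2 scale was 0.826 in ByJcl at Day 5 and 0.201 at baseline, beside 0.222 and 0.172 for all genes tested. In AJcl it was 0.636 at Day 5 (n = 2) and 0.349 at baseline, beside 0.155 and 0.219 for all genes. The spread between libraries was not tested, since it was noticed in the same values.

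**Figure D4:**
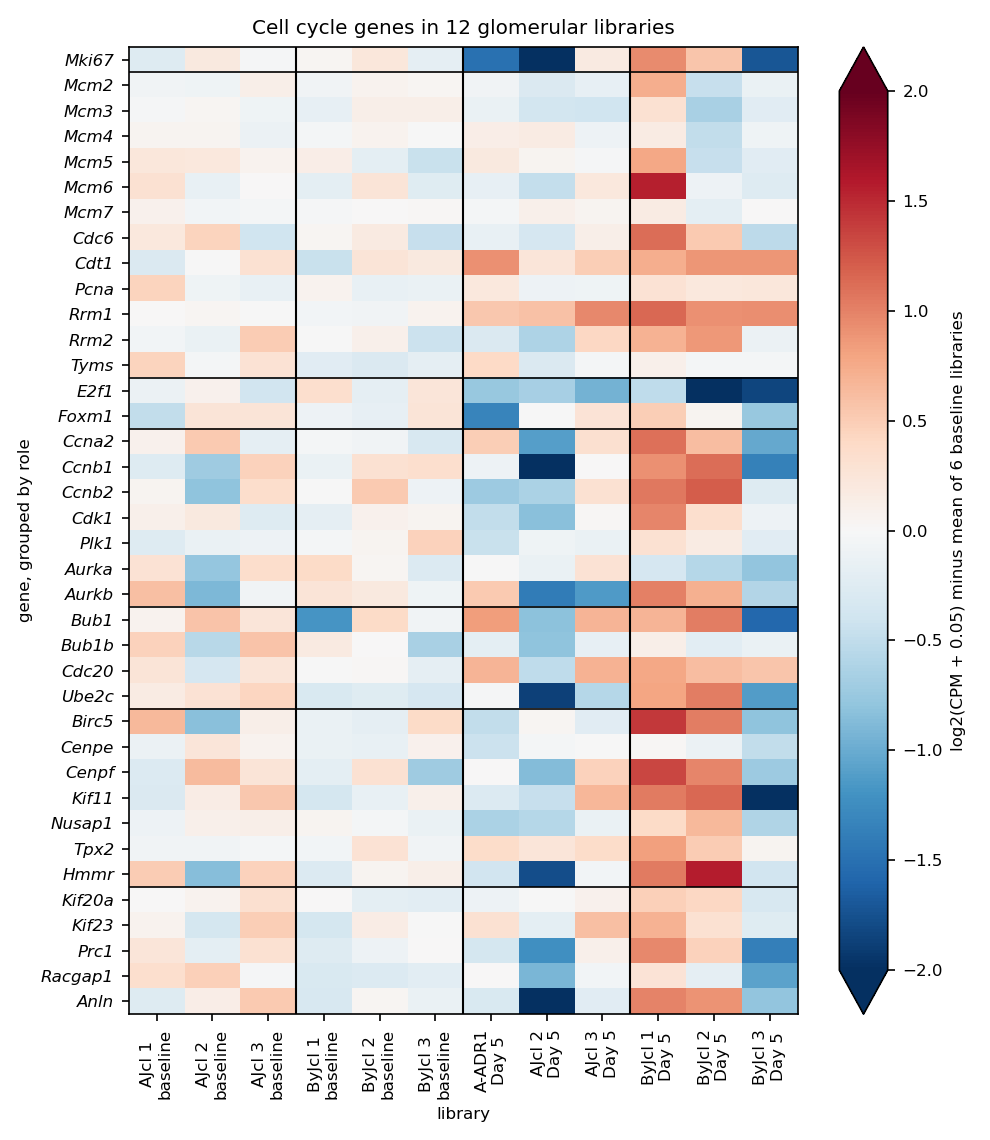
Heat map of the 38 genes (rows, grouped by role) in 12 libraries (columns) as log2(CPM + 0.05) minus the mean of the 6 baseline libraries, red above and blue below, with colours capped at -2 and 2. ByJcl Day 5 replicates 1 and 2 are red across most mitotic rows, AJcl Day 5 replicate 2 and ByJcl Day 5 replicate 3 are blue there, and the Rrm1 row is red in all 6 Day 5 libraries.

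The groups of mitotic genes had no call in any comparison. The 7 S and M phase cyclins and kinases had median log2 fold changes of -0.35 in AJcl and 0.46 in ByJcl, ranging from -1.39 (Aurkb, the chromosomal passenger kinase) to 0.09 (Aurka) in AJcl. The 4 genes of the spindle checkpoint and anaphase promotion had medians of -0.44 and 0.70, with Ube2c, the ubiquitin-conjugating enzyme of the anaphase-promoting complex, at -1.49 ± 0.68 in AJcl and 0.88 ± 0.56 in ByJcl. The 7 spindle, kinetochore and passenger genes had medians of -0.18 and 0.77. Within them Tpx2, which nucleates spindle microtubules, was positive in both substrains (0.40 ± 0.26 and 0.46 ± 0.24), and Hmmr, a spindle assembly factor, was not (-0.85 ± 0.73 and 1.06 ± 0.62). The motor gene Cenpe was near 0 in both (-0.08 ± 0.24 and -0.09 ± 0.22). The 5 cytokinesis genes had medians of -0.52 and 0.40, with the contractile ring gene Anln at -1.03 ± 0.61 in AJcl and 0.74 ± 0.52 in ByJcl. Of the other members of these groups, Birc5 (survivin), Cenpf, Kif11, Ccna2, Ccnb2, Bub1 and Prc1 had ByJcl estimates of 0.46 to 0.98, each with an SE of at least 0.47. Kif20a, Kif23, Nusap1, Racgap1, Bub1b and Plk1 lay between -0.05 and 0.40 in ByJcl.

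At baseline the log2 differences between the substrains ran from -0.62 to 0.37 over the 38 genes. None of the 38 genes was called with edgeR (0.159% of all genes, 0.135% higher and 0.0235% lower) or with DESeq2. An unadjusted p below 0.05 (edgeR) was found for 1 of the 38, beside 1418 of all 17002 genes. The median log2 difference, ByJcl minus AJcl, was -0.10 beside 0.01 for all genes tested. The lack of calls does not show that the levels were alike. Plk1, a mitotic kinase, was higher without overlap in ByJcl at baseline (8.22% of all genes were), and Tyms, Ube2c, Kif20a and Racgap1 were lower (6.3%).

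At Day 5 none of the 38 was called between the substrains with edgeR (0.165% of all genes, 0.135% higher and 0.0294% lower) or with DESeq2. An unadjusted p below 0.05 (edgeR) was found for 6 of the 38, beside 2374 of all 17002 genes. The median log2 difference was 0.42 for the 38 and 0.67 for the 24 mitotic genes, beside 0.00 for all genes, with 32 and 22 of them positive. Aurkb had the largest estimate, 2.00 ± 0.62 (95% interval 0.62 to 3.37, edgeR adjusted p = 0.216). It was 0.224 and 0.279 CPM in AJcl at Day 5, 0.993 in A-ADR1, and 1.41, 1.13 and 0.431 in ByJcl, so the groups did not overlap only while A-ADR1 was left out. The same held for Cdt1 and Pcna, named next. Cdt1, Pcna and Aurkb were higher without overlap in ByJcl (15.1% of all genes were) and Aurka lower (17.2%). With 1 library left out the median of the 38 lay between 0.17, without ByJcl Day 5 replicate 1, and 0.88, without AJcl Day 5 replicate 3, and it was 0.18 without AJcl Day 5 replicate 2.

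The change after ADR was then compared between the substrains by the interaction term. No gene of the 38 and none of all 17002 was called (edgeR, 0.0%; unadjusted p below 0.05 for 5 and 1363), while DESeq2 called 23 genes, none of them among the 38. The median interaction was 0.68 for the 38 and 0.80 for the mitotic genes. Ube2c had a value of 2.37 ± 0.88 (95% interval 0.43 to 4.30, edgeR adjusted p = 0.62), from 6 and 20 counts in the 2 AJcl Day 5 libraries tested, 28 in A-ADR1 and 12 to 58 in ByJcl. Mki67 had 0.82 ± 0.95 (95% interval -1.27 to 2.91). With 2 AJcl and 3 ByJcl libraries at Day 5, no difference between the substrains in the change of these genes was detected. The intervals do not show that the substrains respond alike.

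Among 18 genes that brake the cell cycle, 7 rose in the mean ADR comparison and none fell, with 8 risen in ByJcl and 2 in AJcl, where 6.29%, 5.75% and 0.306% of all genes were called higher, and the median log2 fold change was 0.52 beside 0.00 for all genes. Cdkn1a (p21) was 21.6, 30.2 and 30.8 CPM in AJcl at baseline and 281 and 546 at Day 5, with 295 in A-ADR1. In ByJcl it was 22.5, 20.3 and 23.2 CPM at baseline and 600, 947 and 592 at Day 5. The mean log2 fold change was 4.49 ± 0.21 (edgeR adjusted p = 1.44e-06). Ccng1, a p53-induced cyclin, rose by 1.89 ± 0.09 (adjusted p = 1.44e-06) and Cdkn1c (p57), a CDK inhibitor that podocytes express, by 0.98 ± 0.13 (adjusted p = 0.00162), each without overlap in both substrains. Gadd45a, Btg2, Plk3 and Sesn2 were the other 4 called. Of the 18, 12 had positive and 6 negative estimates in the mean ADR comparison, from -0.07 to 4.49. The mean log2 level of the list was above that at baseline in every Day 5 library, by 0.52 to 1.07, including the 2 libraries in which the mitotic genes were lowest.

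**Figure D5:**
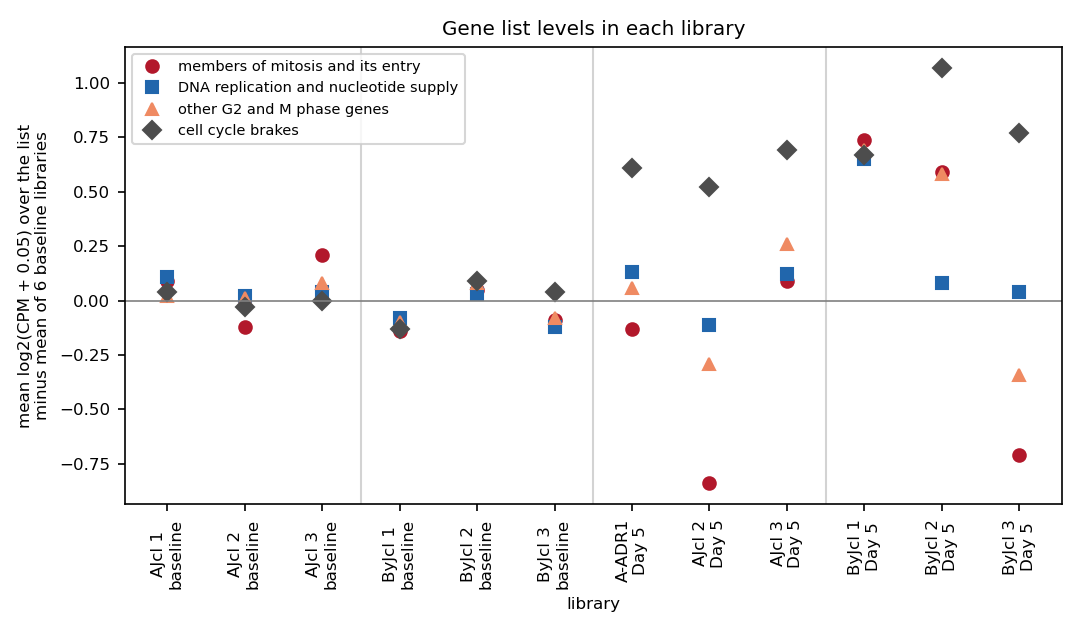
Mean log2(CPM + 0.05) of 4 gene lists in each library relative to the 6 baseline libraries: the 24 mitotic genes (circles), 12 replication genes (squares), 60 other G2 and M phase genes (triangles) and 18 cell cycle brakes (diamonds). The mean of the brakes lies above 0.5 in all 6 Day 5 libraries, while the mitotic genes reach from -0.84 to 0.74.

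Beyond the 38, lists of other cell cycle genes gave the context. In the mean ADR comparison 6.29% of all genes were called higher and 4.15% lower, and the counts that follow are read against these shares. Of 48 other S phase genes, 1 rose, Tipin of the replication fork protection complex (0.48 ± 0.13, edgeR adjusted p = 0.0457), and the median was 0.08. The Tipin call held in 1 of the 11 fits that left out 1 library, that without ByJcl baseline replicate 3. Of 60 other G2 and M phase genes, 59 were tested and 4 rose, a share close to that of all genes: Gtse1, Ckap2, Arhgap11a and Ncaph. Gtse1, a microtubule protein and p53 regulator, was 0.511 to 1.23 CPM in the baseline libraries and 5.62 to 14.1 in the Day 5 libraries, a log2 fold change of 3.56 ± 0.25 (edgeR adjusted p = 3.59e-05). Ckap2, a spindle protein, was 0.382 to 0.850 CPM at baseline and 0.895 to 5.64 at Day 5 (2.06 ± 0.36, adjusted p = 0.0055), and Arhgap11a 3.88 to 6.39 and 6.06 to 9.75 CPM (0.74 ± 0.16, adjusted p = 0.0141). Both Gtse1 and Ckap2 were above all baseline libraries also in AJcl replicate 2 and ByJcl replicate 3, where most mitotic members of the 38 were low. Over the list the mean log2 level in those 2 libraries was -0.29 and -0.34, and 0.69 and 0.58 in ByJcl replicates 1 and 2. Of 24 G1 regulators, 1 rose and 2 fell: Myc, a growth-promoting transcription factor, at 1.24 ± 0.24 (edgeR adjusted p = 0.00868), the cyclin Ccnd2 at -0.52 ± 0.10 (adjusted p = 0.008) and E2f3 at -0.34 ± 0.08 (adjusted p = 0.0282). Without AJcl Day 5 replicate 3 the calls of Myc (1.02, edgeR adjusted p = 0.0646) and Arhgap11a (0.74, adjusted p = 0.0749) were lost. The call of Ncaph held only in the fits without AJcl baseline replicate 2, AJcl Day 5 replicate 2 or ByJcl Day 5 replicate 3, and that of E2f3 only in those without AJcl baseline replicate 1 or 3 or ByJcl Day 5 replicate 1.

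Markers of cells that divide or that can carry cycling transcripts were read beside the mitotic genes. The 6 macrophage and monocyte markers summed to 118, 76.8 and 77.3 CPM in the ByJcl Day 5 libraries, 44.0 and 71.8 in AJcl and 48.7 in A-ADR1, against 43.8 to 63.4 in AJcl and 64.2 to 109 in ByJcl at baseline. Among the Day 5 libraries, ByJcl replicate 1 had both the highest macrophage sum and the highest mitotic level, and AJcl replicate 2 had the lowest of both. ByJcl replicates 2 and 3 had nearly equal macrophage sums and mitotic levels of opposite sign. Weighting the 6 markers equally as a mean log2 level, the highest Day 5 library was ByJcl replicate 3 (0.41) and the lowest A-ADR1 (-0.68). ByJcl baseline replicate 3 stood higher, at 0.62. Of these markers Cd68 and Cd14 rose in the mean ADR comparison, where 6.29% of all genes did (0.93 and 0.47, edgeR adjusted p = 0.00872 and 0.0301), while the list had 3 positive and 3 negative estimates with a median of -0.03 and a lowest value of -0.44. In ByJcl the median was -0.12, Cd68 was called higher and did not overlap (15.9% of all genes were higher without overlap), and Csf1r was lower without overlap (17.7%) and was not called. The 6 lymphocyte markers summed to 2.52, 2.56 and 1.72 CPM in ByJcl and 0.515 and 2.11 in AJcl at Day 5, with 1.81 in A-ADR1, and to 1.19 to 2.64 at baseline, and none was called. Their mean log2 level relative to baseline was 0.39, 0.34 and -0.31 in the ByJcl Day 5 libraries, -1.38 and 0.20 in AJcl and -0.29 in A-ADR1, the order of the mitotic genes, though with small gaps between the highest pair and between A-ADR1 and ByJcl replicate 3. The highest of all 12 libraries was ByJcl baseline replicate 3, at 0.54, where the mitotic genes stood at -0.09. The erythroid marker Alas2 fell from between 4.57 and 10.4 CPM at baseline to between 0.171 and 0.948 at Day 5 (log2 fold change -3.48, edgeR adjusted p = 0.000601), and 3 of the 6 genes of its list had no count in any library. ByJcl Day 5 replicate 1 also had the fewest tubule transcripts of the Day 5 libraries, with 287 CPM of proximal and 92.4 CPM of distal markers. The 6 endothelial markers had 2 calls, both lower in ByJcl, where 4.83% of all genes were, Ehd3 (-0.81) and Flt1 (-0.54), with edgeR adjusted p = 0.0271 and 0.0471. Of the mesangial, proximal tubule, distal nephron, injured tubule and neutrophil precursor lists, no gene was called in any of the 6 comparisons, with 2 of the 6 neutrophil genes tested. The part of any of these cell types in the levels of the 38 genes was not tested.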

How the data were processed

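RNA was measured by poly(A)-selected, strand-specific, paired-end RNA-seq of glomeruli. According to the submitters' processing notes and the study's methods, reads were checked with FastQC, trimmed with Trimmomatic, aligned to GRCm39 with STAR and counted per gene with featureCounts. The deposited values are raw read counts per gene symbol, not normalized and not pooled. The annotation and the strand setting of the counting are not given in the sources used here. Baseline and Day 5 counts are in separate tables, so any difference in how the tables were made cannot be told apart from ADR. Between 77.1% and 82.9% of counts from 1 to 49 were even, so both mates of a pair may have been counted, and halved counts were an alternative. The sample titles name no batch, and all libraries were treated as 1 batch. Replicate pairs differed beyond counting noise (chi-square per degree of freedom 44.6 to 271), so none was counted as a duplicate.

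Counts were tested in R 4.3.3 with edgeR 4.0.16 (TMM scaling, filterByExpr by group, quasi-likelihood F test, 1 coefficient per group) over 11 libraries, with 17002 genes tested, 7 residual degrees of freedom and a common dispersion of 0.0521. P-values were adjusted by Benjamini-Hochberg over all genes tested and called below 0.05. Contrasts were Day 5 against baseline in each substrain and as their mean, the substrains at baseline and at Day 5, and the interaction. CPM values use TMM factors over 12 libraries. A count of 0 would allow up to 3 counts, and such limits cover counting error only. DESeq2 1.42.0, RLE scaling, 2 other filters, all 12 libraries, a replicate block and each library left out were alternatives. The model script was tested on simulated data. Exon lengths, coordinates and transcript starts came from GENCODE vM39 and promoters from RefSeq, and the sequences of 6 genes were not used here.

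The genes and lists were chosen with earlier results of these data known. Some podocyte markers are not reported here. Values in every library are given for Mki67, Ccnb1, Cdk1, Mcm2, Pcna, Foxm1 and the genes called in any comparison, and for Cdkn1a, and of each other list up to 3 called genes each way, taken by adjusted p, are named. Ncaph, Gadd45a, Btg2, Plk3, Sesn2 and all other genes named fall outside this rule and were singled out after their values were seen. Python 3.11.15 with pandas 2.3.3 and, for plots, matplotlib 3.10.9 was used for the rest.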

Additional observations from a re-analysis of the deposited data

Results flagged for a closer look

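A-ADR1, the AJcl Day 5 library that the study excludes, entered only the alternative fit with all 12 libraries, and 6 of the 38 genes (15.8%) stood in it above all 6 baseline libraries, against 31.4% of all genes tested. The share of the 38 was thus below that of all genes. Rrm1 was 54.1 CPM there against at most 39.3 at baseline, and Cdt1 4.41 against at most 2.90. Cdc20 was 4.77 CPM (at most 3.56 at baseline), Tpx2 3.04 (2.89), Mcm4 30.5 (29.3) and Bub1 0.669 (0.551). In AJcl Day 5 replicate 3, 5 of the 6, all but Mcm4, were also above all baseline libraries. Groups of 3 were too small for a check of single outlying libraries.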

How the results depend on the processing

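The number of the 38 genes called in AJcl after ADR, 1, became 0 with all 12 libraries and 0 with the replicate block, and the Rrm1 call there was lost in both (0.70 and 0.81). The block also ended the calls of Ncaph (0.87) and Tipin (0.48), and changed no other count of the 38. It moved the whole-table calls in AJcl from 53 to 26. The replicate numbers name different samples, and the deviations of 15 same-numbered pairs of libraries correlated between -0.238 and 0.374, with 4 over 0.1. Pairs with different numbers were not compared, so these values do not show whether libraries with the same number share anything else. With each library left out, the called genes of the 38 numbered 0 to 1 in AJcl, 1 to 4 in ByJcl, 1 to 3 in their mean, and 0 to 0 between substrains at baseline, at Day 5 and in the interaction. Their median log2 fold change lay between -0.58 and 0.03, 0.19 and 0.78, -0.09 and 0.21, -0.15 and -0.03, 0.17 and 0.88, and 0.36 and 1.08 in the same order. Signs of genes that passed no test turned with all 12 libraries for Ccnb1 (mean 0.03), Mcm2 (mean 0.01) and Foxm1 (AJcl -0.25, mean -0.09). They also turned when 1 library was left out: Mki67 lay between -2.30 and 0.23 in AJcl, -0.19 and 0.78 in ByJcl and -0.99 and 0.27 as the mean. Ccnb1 lay between -2.41 and 0.14 in AJcl and -0.98 and 0.30 as the mean, and Cdk1 between -0.92 and 0.03 and between -0.19 and 0.28. Mcm2 lay between -0.28 and 0.38 in ByJcl and -0.25 and 0.09 as the mean, and Pcna between -0.29 and 0.02 in AJcl. Foxm1 lay between -0.11 and 0.26 in AJcl, -0.29 and 0.34 in ByJcl and -0.09 and 0.22 as the mean. Over all genes tested DESeq2 called 301, 2694 and 2481 genes in AJcl, ByJcl and their mean, 101 and 555 between substrains at baseline and Day 5, and 23 in the interaction, against 53, 1800, 1774, 27, 28 and 0 with edgeR. All 12 libraries gave 1197 in ByJcl and 72 at Day 5, and no filter on low counts gave 99 in AJcl and 56 at Day 5. In AJcl the whole-table calls were 11 without AJcl Day 5 replicate 3 and 180 without replicate 2, in ByJcl 680 without ByJcl Day 5 replicate 2 and 2056 without AJcl baseline replicate 1, and in the mean 531 without AJcl Day 5 replicate 3. At Day 5 the calls between substrains were 218 without AJcl Day 5 replicate 3 and 9 without replicate 2, against 28, and the interaction calls 5 without replicate 3, against 0. The causes were not tested. Cdt1 as the mean of both substrains passed with all 12 libraries (0.71), DESeq2 (0.62), halved counts (0.62) and without AJcl baseline replicate 3 (0.70). Rrm1 in ByJcl and in the mean, Cdkn1a, Ccng1, Cdkn1c, Gtse1, Ckap2 and Ccnd2 in the mean stayed called in all 11 fits with 1 library left out. Of the 38 genes, 4 had a library under 10 counts.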
